A study of Mus musculus with 12 samples.

Results

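The genes of the pyruvate dehydrogenase complex, of the kinases and phosphatases that switch it, and of the mitochondrial pyruvate carrier were followed in mouse liver with and without the nuclear receptor gene Ppara. The 10 genes, Pdk1, Pdk2, Pdk3, Pdk4, Pdp1, Pdp2, Pdha1, Pdhb, Dlat and Mpc1, were chosen by name, and all 10 were found among 22180 genes measured. The samples were livers of 12 adult female C57Bl/6 mice aged 12 to 14 weeks, 6 of them wild type (WT) and 6 Ppara knockouts (Ppara KO). Each animal gave 1 array of the Affymetrix MoGene 2.0 ST design. No treatment is named for either genotype, and the allele behind the knockout, the fasting state and the time of collection are not recorded in the labels used here.

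Pyruvate dehydrogenase is a mitochondrial enzyme complex that turns pyruvate, the end product of glycolysis, into acetyl-CoA. Pyruvate enters mitochondria through a carrier, of which Mpc1 encodes a subunit. The complex is switched off when pyruvate dehydrogenase kinases (PDK) phosphorylate its E1 component and on again when pyruvate dehydrogenase phosphatases (PDP) remove the phosphate. PPARα, the product of Ppara, is a fatty acid sensor, and Pdk4 is a widely known target of it: in fasting, more PDK4 holds the complex inactive and spares carbohydrate while fatty acids are burned.

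The promoters of 3 genes on which the results below turn are shown first, as the 250 bases before the start site in RefSeq (build GRCm38.p6), read 5′ to 3′ on the strand of the gene. Pdhb and Pdp2 are the genes whose level differed, and Pdk4 is the known PPARα target. The Pdhb window is chr14:8172993-8173242 (minus strand), the Pdp2 window chr8:104591222-104591471 (plus strand) and the Pdk4 window chr6:5496279-5496528 (minus strand). Capitals mark the E-box CACGTG, the motif bound by the clock activators, and the CCAAT box on either strand (CCAAT, or ATTGG on the other strand).
Pdhb: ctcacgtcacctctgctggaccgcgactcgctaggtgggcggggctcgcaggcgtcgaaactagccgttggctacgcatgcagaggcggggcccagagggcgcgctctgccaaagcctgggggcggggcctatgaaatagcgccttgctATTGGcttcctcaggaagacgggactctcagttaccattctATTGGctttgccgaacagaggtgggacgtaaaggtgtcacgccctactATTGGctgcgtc
Pdp2: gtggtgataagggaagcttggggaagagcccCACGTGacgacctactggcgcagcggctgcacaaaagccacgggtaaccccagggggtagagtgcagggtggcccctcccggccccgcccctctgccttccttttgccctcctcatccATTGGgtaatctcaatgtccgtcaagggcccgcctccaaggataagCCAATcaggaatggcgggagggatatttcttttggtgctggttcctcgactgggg
Pdk4: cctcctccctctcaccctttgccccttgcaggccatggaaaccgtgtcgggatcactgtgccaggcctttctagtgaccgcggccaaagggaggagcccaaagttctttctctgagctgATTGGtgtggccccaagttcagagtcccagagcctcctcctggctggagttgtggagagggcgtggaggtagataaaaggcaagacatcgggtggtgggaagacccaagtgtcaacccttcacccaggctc
The table of RefSeq promoters held 12 windows for 9 of the 10 genes, with Pdk1, Pdk2 and Mpc1 at 2 start sites each. An E-box stood in the Pdp2 window, beginning 219 bases before the start site, and in 1 of the Pdk2 windows, beginning 126 bases before it; 6.02% of all 32851 windows of this length held one. CCAAT boxes stood in 6 of the 12 windows, 1 window each of Pdk2, Pdk3, Pdk4, Pdp2, Pdhb and Mpc1, and in 33.9% of all windows. The Pdhb window held 3 such boxes, the Pdp2 window 2 and the Pdk4 window 1. The direct repeat AGGTCANAGGTCA, the sequence bound by PPARα with its partner RXR, was in 0 of the 12 windows and in 0.0335% of all. The single site AGGTCA, which the repeat also contains, was in 1 Mpc1 window and in 14.0% of all, and the forkhead site GTAAACA was in 0 of the 12 and in 3.17% of all. Both strands were searched, and a match or its absence describes these letters in this window and nothing beyond it.

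Values are log2 levels of normalized array signal, so 1 unit is a factor of 2. Each gene was compared by limma, a linear model fitted to all genes that shares the variance estimate among them, with the Benjamini-Hochberg adjustment over the 22180 genes; a gene was called at an adjusted p under 0.05. Differences are Ppara KO minus WT with the limma standard error (SE). Ppara, the targeted gene, had a log2 level of 7.98 ± 0.16 in WT and, in Ppara KO, of 8.01 ± 0.13 (mean ± SD over 6 animals), and a 2-sided exact permutation test gave p = 0.712. The labels do not say where its probes lie relative to the disrupted part, so this does not check the genotype. All 10 measured genes of a list of PPARα targets fell, and their mean log2 level was 8.91 to 9.34 in WT animals, against 6.97 to 7.45 in Ppara KO animals. Transcript levels of clock genes differed too, in 10 of 11 measured, all but Cry1. Among all genes 10.2% were called, and 17.5% of those at or above the median level. Both lists were chosen with earlier results of these data known, so their counts are no test. Each animal was sampled once, and the time of collection is not recorded. Genotype, clock state and time of collection therefore cannot be told apart in the differences below.

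Of the 10 genes, 1 rose and 1 fell in Ppara KO. Pdhb, which encodes the beta subunit of the E1 component, rose 1.37-fold, and Pdp2, which encodes one of the phosphatases, fell 1.29-fold. Among all genes 10.2% were called, 4.46% higher and 5.77% lower, and 17.5% among the 11090 genes at or above the median level. The count of 2 of 10 lies within 1 gene of either share and is no result about the set as a group. In the same 2 genes all values of one genotype lay beyond all of the other, against 6.51% of all genes. An unadjusted p under 0.05 was reached by 4 of the 10, Pdhb, Pdp2, Dlat and Pdk4, against 22.9% of all genes. The median difference of the 10 genes was 0.021, beside 0.0090 over all genes, and the median size of the difference was 0.14, beside 0.10 over all genes and 0.12 over the 11090 genes at or above the median level.

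**Figure D1:**
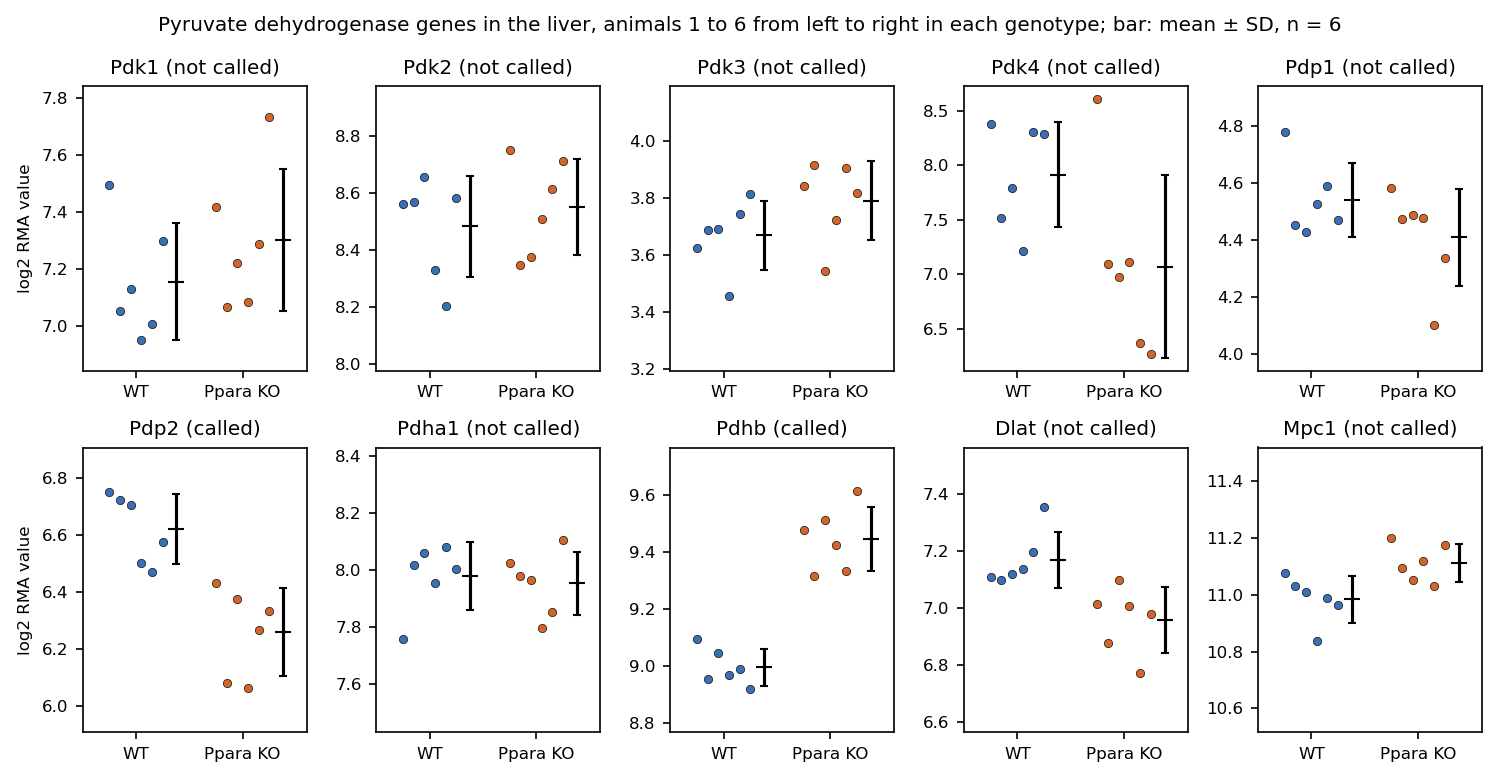
Log2 level of each of the 10 genes in every animal, WT in blue and Ppara KO in orange, with animals 1 to 6 from left to right and a bar for the mean ± SD of 6; each panel has its own axis range. Only in the Pdhb and Pdp2 panels do the genotypes not overlap, and Ppara KO 1 stands at 8.61 in the Pdk4 panel, above the other 5 Ppara KO animals.

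Pdk4 encodes the kinase that fasting and fatty acids induce. Its log2 level in WT was 8.37, 7.51, 7.79, 7.22, 8.30 and 8.29 in animals 1 to 6. In Ppara KO it was 8.61, 7.09, 6.98, 7.11, 6.36 and 6.27 in animals 1 to 6. Thus 5 of 6 Ppara KO animals lay below every WT animal, and Ppara KO 1 lay above all of them. The difference was -0.84 ± 0.33 (SE; 95% interval -1.54 to -0.15), a 1.79-fold lower mean, and it was not called (adjusted p 0.126, limma). The spread was wide: the SD was 0.48 in WT and 0.84 in Ppara KO, and 0.153% of all genes had a larger pooled SD.

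Whether Pdk4 was called rested on that one animal. Without Ppara KO 1 the difference was -1.15 ± 0.23 and was called (adjusted p 0.00587, limma), whereas with any other single animal left out it ran from -0.98 to -0.68 without a call. Why Ppara KO 1 was high in Pdk4 was not tested, and other values of this animal are given as a description. Its Cyp4a14 level, a strongly PPARα-dependent omega-hydroxylase gene, was 4.92, within the 3.50 to 6.44 of the other Ppara KO animals and below the 9.95 to 11.0 of WT. Its mean over the PPARα targets was 7.32, beside 6.97 to 7.45 in the others, and its Dbp level, a clock output gene, was 10.17, at the top of the Ppara KO range that began at 9.05. The median correlation of its array with the other Ppara KO arrays was 0.9923, inside the 0.9916 to 0.9928 of that genotype. Ppara KO 1 also had the lowest level of the clock gene Npas2 of all animals, 4.05, and the highest array median, 4.17.

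**Figure D2:**
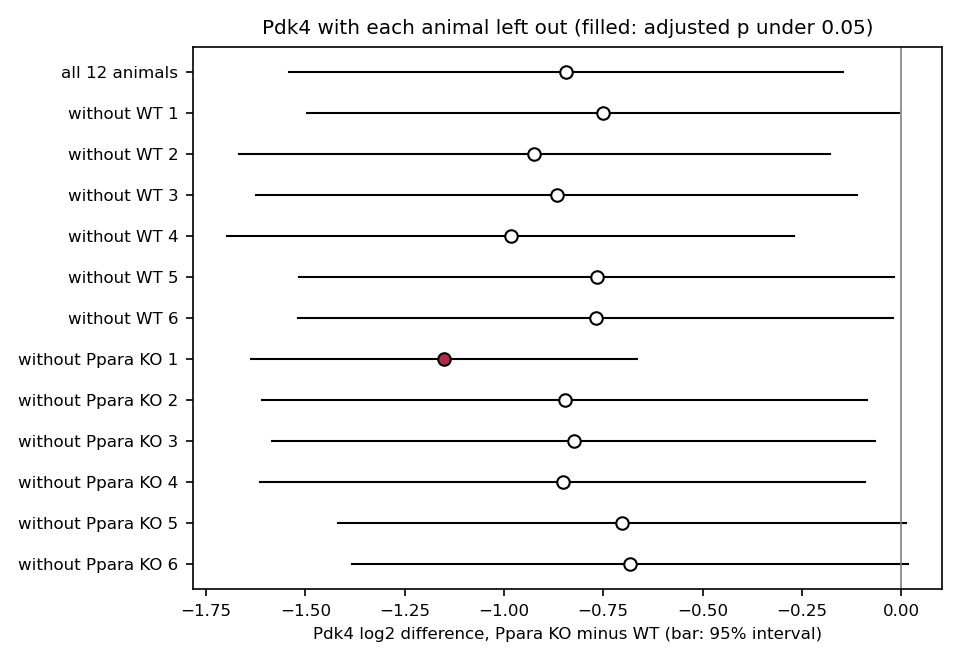
Pdk4 log2 difference, Ppara KO minus WT, with its 95% interval, for all 12 animals and with each animal left out; filled points have an adjusted p under 0.05. The 1 filled point is the fit without Ppara KO 1, at -1.15.

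Adipocyte markers varied between the WT animals, and only in part along with Pdk4. The mean log2 level of 8 measured adipocyte markers was 5.39 in WT 1, 5.97 in WT 3 and 5.95 in WT 5. The remaining WT animals were at 4.71 to 4.89, and the Ppara KO animals at 4.60 to 4.83. Of these markers 3 fell in Ppara KO, Adipoq, Plin4 and Lipe, and 1, Pparg, rose. Called were 50% of the list, beside 10.2% of all genes. The call of Adipoq ended without WT 3, Ppara KO 1, Ppara KO 2, Ppara KO 3 or Ppara KO 6 (adjusted p 0.0533 to 0.0661, limma). Without WT 1, 3 and 5 together Adipoq, Plin4 and Lipe were not called (adjusted p 0.0998, 0.144 and 0.218, limma). That fit leaves 3 WT animals, and in it the calls over all genes fell from 2268 to 1008. A call lost in it, for these genes or for those below, therefore does not show dependence on these markers. Pdk4 averaged 8.16 over WT 1, 3 and 5 and 7.67 over WT 2, 4 and 6. However, WT 6 was high in Pdk4, at 8.29, without high markers, and WT 3, with the highest marker mean, had Pdk4 at 7.79. The Pdk4 difference without WT 1, 3 and 5 was -0.60 (adjusted p 0.506, limma). RMA values have no true zero, and the dimmest marker, Lep, averaged 3.03 in WT and 2.89 in Ppara KO; the part of these cells in the Pdk4 values was not tested. In a whole liver sample, fewer cells of a type and less RNA per cell cannot be told apart.

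The other 3 kinase genes had small differences without a call. Pdk2 encodes the kinase isoform most widely expressed across tissues. Its level ran from 8.20 to 8.66 in WT (median 8.57) and from 8.35 to 8.75 in Ppara KO (median 8.56), with a difference of 0.068 ± 0.096 (95% interval -0.14 to 0.27; adjusted p 0.748, limma). Pdk1, a kinase gene induced in hypoxia, ran from 6.95 to 7.50 in WT (median 7.09) and from 7.07 to 7.74 in Ppara KO (median 7.26), and its difference of 0.15 ± 0.12 had a 95% interval of -0.11 to 0.40. Pdk3 was dim on these arrays, at 3.46 to 3.81 in WT (median 3.69) and 3.54 to 3.92 in Ppara KO (median 3.83), below the array medians of 4.13 to 4.17, with a difference of 0.12 ± 0.080 (95% interval -0.049 to 0.29). In all 3 genes the genotypes overlapped, with 2 of 6 Ppara KO animals above every WT animal for Pdk2, 1 for Pdk1 and 4 for Pdk3. The intervals of Pdk2 and Pdk1 leave out a change of the size measured for Pdk4 in either direction. That of Pdk3 does so for the array signal only, because RMA compresses differences of dim genes.

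Of the phosphatases, Pdp2 fell and Pdp1 did not pass the test. Pdp2 encodes the isoform that is sensitive to insulin. Its level ran from 6.47 to 6.75 in WT (median 6.64) and from 6.06 to 6.43 in Ppara KO (median 6.30), so every Ppara KO animal lay below every WT animal. The difference was -0.36 ± 0.083 (95% interval -0.54 to -0.19; adjusted p 0.0111, limma). It kept its call with each of the 12 animals left out in turn, at -0.40 to -0.32. Without WT 1, 3 and 5 together, which leaves 3 WT animals, it was -0.34 and not called (adjusted p 0.0952, limma). Those are the animals high in adipocyte markers, and the mean of Pdp2 was 6.64 in them and 6.60 in the other WT animals. Any part of adipocytes in the Pdp2 difference was not tested. Pdp1, which encodes the calcium-sensitive isoform, ran from 4.43 to 4.78 in WT (median 4.50) and from 4.10 to 4.58 in Ppara KO (median 4.47), and its difference of -0.13 ± 0.088 was not called (95% interval -0.32 to 0.057).

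Of the catalytic subunits Pdhb rose, while Pdha1 and Dlat did not pass the test. Pdhb and Pdha1 encode the beta and alpha subunits of E1, which decarboxylates pyruvate and whose alpha subunit carries the sites that the kinases phosphorylate. Pdhb ran from 8.92 to 9.09 in WT (median 8.98) and from 9.31 to 9.61 in Ppara KO (median 9.45), with every Ppara KO animal above every WT animal. Its difference was 0.45 ± 0.067 (95% interval 0.31 to 0.59; adjusted p 5.01e-04, limma). The rise was called in each of 21 alternative fits, from 0.42 to 0.50, but not by treat, the limma test against a 1.2-fold change. Pdha1 ran from 7.76 to 8.08 in WT (median 8.01) and from 7.80 to 8.10 in Ppara KO (median 7.97), and its difference of -0.026 ± 0.074 had a 95% interval of -0.18 to 0.13 that lies below the interval of Pdhb. Dlat encodes E2, the acetyltransferase that forms the core of the complex. It ran from 7.10 to 7.36 in WT (median 7.13) and from 6.77 to 7.10 in Ppara KO (median 6.99), with 5 of 6 Ppara KO animals below every WT animal and the genotypes meeting at 7.10. Its difference of -0.21 ± 0.072 (95% interval -0.36 to -0.058) missed the threshold (adjusted p 0.0785, limma), and 2 alternatives called it, a variance prior with an intensity trend (adjusted p 0.0464, limma) and a fit over the brighter genes alone (adjusted p 0.0298, limma).

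**Figure D3:**
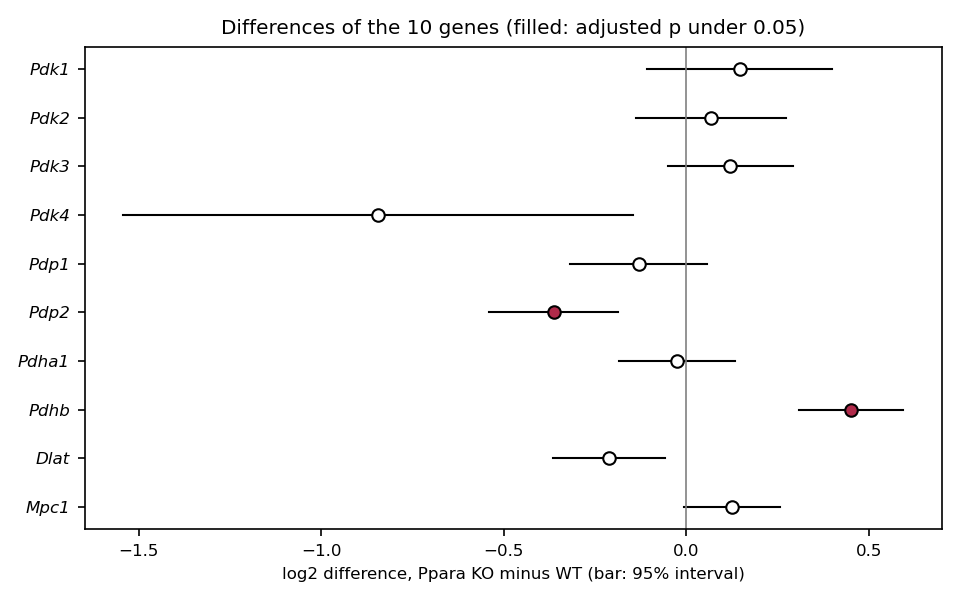
Log2 difference, Ppara KO minus WT, of the 10 genes with its 95% interval; filled points have an adjusted p under 0.05. Pdhb at 0.45 and Pdp2 at -0.36 are filled, and Pdk4 at -0.84 has the widest interval.

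Mpc1, the carrier subunit gene, had 2 transcript clusters. The brighter one, which stands for the gene, ran from 10.84 to 11.08 in WT (median 11.0) and from 11.03 to 11.20 in Ppara KO (median 11.1), with 4 of 6 Ppara KO animals above every WT animal. Its difference of 0.13 ± 0.062 was not called (95% interval -0.0054 to 0.26; adjusted p 0.241, limma). The dimmer cluster ran from 6.28 to 6.71 in WT and from 6.64 to 7.03 in Ppara KO, and rose by 0.31 (SE 0.084) when every cluster was fitted on its own, an analysis added after the values were seen (adjusted p 0.0312, limma over 23521 clusters). Both clusters had a positive difference and they disagree on the call. Whether the probes of either match another sequence was not checked. The second cluster of Pdk1 was near the floor of the array, with means of 1.87 and 1.80, and was not called either.

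Genes that complete the complex or supply its cofactors showed 1 fall and 0 rises among 8 measured. Called were 12.5%, beside 10.2% of all genes and 17.5% of those at or above the median level, and the median difference was 0.057. The fall was that of Slc19a2, which encodes a transporter of thiamine, the vitamin behind the cofactor of E1. Its level went from 9.36 ± 0.16 to 9.03 ± 0.10 (WT to Ppara KO, mean ± SD over 6 animals), a difference of -0.33 ± 0.081 (adjusted p 0.0166, limma). Dld, the gene of the E3 dehydrogenase shared with related complexes, had a difference of 0.047 ± 0.072. Lias, the lipoate synthase gene, had -0.12 ± 0.072, and Pdpr, the gene of a regulatory subunit of the phosphatase, had 0.15 ± 0.071; none of these 3 was called. Slc19a2 lost its call without WT 1, 3 and 5 (adjusted p 0.0809, limma).

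Among 14 measured genes that bring pyruvate or use it otherwise, 1 rose and 1 fell. Called were 14.3%, beside 10.2% of all genes and 17.5% of those at or above the median level, and the median difference was -0.047. Slc16a1, which encodes the lactate and pyruvate transporter MCT1, fell by 0.53 (SE 0.080), from 8.97 ± 0.064 to 8.44 ± 0.17 (adjusted p 5.59e-04, limma). Gpt2, which encodes the mitochondrial alanine aminotransferase that exchanges pyruvate and alanine, rose by 0.33 (SE 0.076), from 9.69 ± 0.12 to 10.02 ± 0.11 (adjusted p 0.0107, limma). Pklr, the liver pyruvate kinase gene, differed by 0.23 ± 0.083 and was not called (adjusted p 0.0983, limma), but was called without WT 6, at 0.28 (adjusted p 0.0339, limma). Me1, the malic enzyme gene, had -0.35 ± 0.16 and Agxt, an aminotransferase gene of peroxisomes that uses alanine, had -0.36 ± 0.14, both without a call. Without WT 1, 3 and 5 the rise of Gpt2 was 0.26 and no longer called (adjusted p 0.119, limma).

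The complexes most like pyruvate dehydrogenase, which act on other 2-oxoacids with the same E3 subunit, showed 3 rises and 2 falls among 9 genes. Called were 55.6%, beside 10.2% of all genes and 17.5% of those at or above the median level. The median difference was -0.0068. The list was chosen with earlier results of these data known, and no set test was run. In the branched-chain complex, whose E1 is also switched by a kinase and a phosphatase, the kinase gene Bckdk fell by 0.31 (SE 0.067; adjusted p 0.00854, limma), while the phosphatase gene Ppm1k rose by 0.33 (SE 0.096; adjusted p 0.0379, limma) and the E1 beta gene Bckdhb by 0.26 (SE 0.069; adjusted p 0.0282, limma). Bckdha, the E1 alpha gene, had a difference of -0.065 ± 0.066, and Dbt, the E2 gene, of -0.046 ± 0.080, without a call. Dlst, the E2 gene of the 2-oxoglutarate dehydrogenase complex, fell by 0.30 (SE 0.063, adjusted p 0.00616, limma). Ogdh, the E1 gene of that complex, had 0.15 ± 0.057 without a call (adjusted p 0.117, limma). Its genotypes did not overlap, and 2 of 21 alternatives called it. Dhtkd1, an E1 gene of lysine breakdown, rose by 0.38 (SE 0.092; adjusted p 0.0151, limma). The calls of 2 of these genes lay near the threshold and ended when any of several animals was left out. Bckdhb lost its call without WT 5, WT 6, Ppara KO 3 or Ppara KO 6, at 0.22 to 0.24 (adjusted p 0.0599 to 0.0641, limma), and Ppm1k without WT 1, WT 4, WT 5, WT 6, Ppara KO 1, Ppara KO 3, Ppara KO 5 or Ppara KO 6, at 0.28 to 0.34 (adjusted p 0.0579 to 0.0838, limma). All 5 calls ended without WT 1, 3 and 5 together, a fit that leaves 3 WT animals (adjusted p 0.0661 to 0.181, limma).

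Of 15 measured genes of the tricarboxylic acid cycle, which burns the acetyl-CoA that the complex makes, 1 rose and 1 fell. Called were 13.3%, beside 10.2% of all genes and 17.5% of those at or above the median level, and the median difference was -0.021. Cs, the citrate synthase gene that takes up acetyl-CoA, fell from 9.34 ± 0.093 to 8.93 ± 0.13, a difference of -0.40 ± 0.073 (adjusted p 0.00236, limma). Idh2, a mitochondrial isocitrate dehydrogenase gene, rose by 0.29 (SE 0.080; adjusted p 0.0304, limma). Its call ended without WT 3, WT 4, WT 5, WT 6, Ppara KO 1, Ppara KO 3 or Ppara KO 6, at 0.25 to 0.29 (adjusted p 0.0540 to 0.0700, limma), and without WT 1, 3 and 5 together (adjusted p 0.198, limma). Sdha, a succinate dehydrogenase subunit gene, had 0.16 ± 0.064, Suclg2 0.11 ± 0.065 and Idh3b 0.076 ± 0.053, all without a call.

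**Figure D4:**
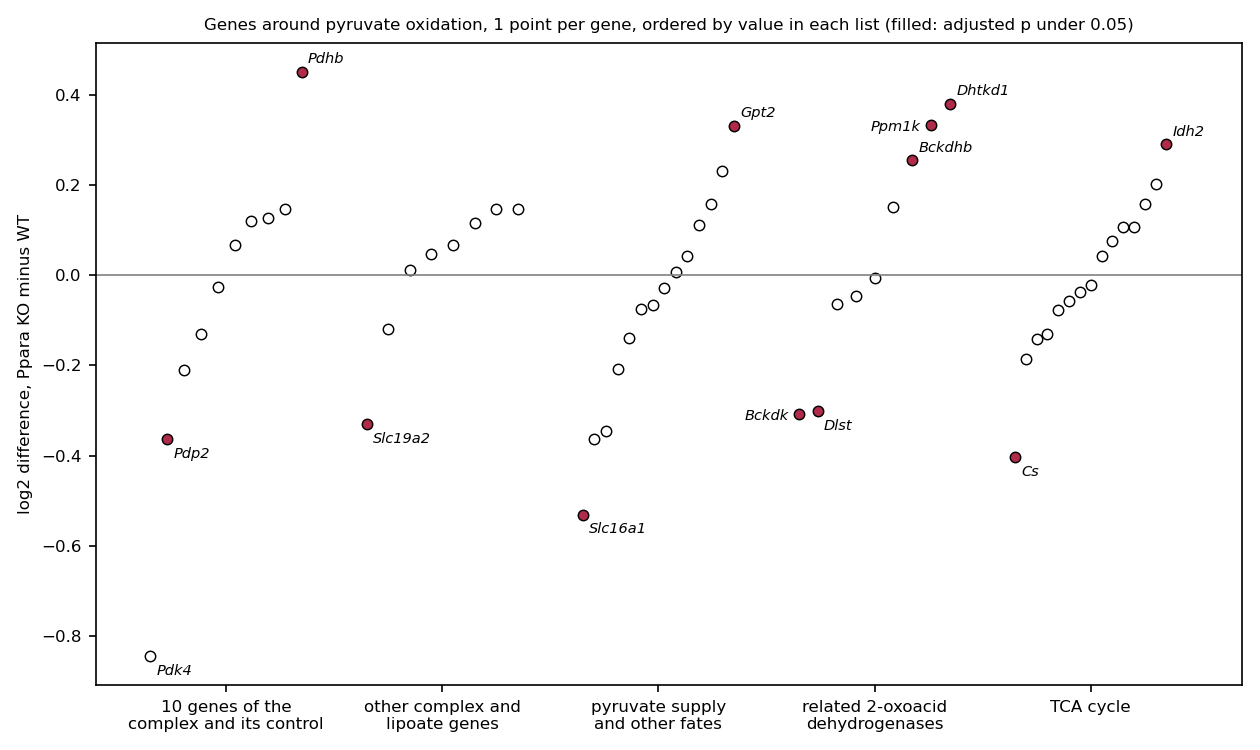
Log2 difference, Ppara KO minus WT, of each measured gene in the set of 10 and in 4 lists of neighbouring genes, ordered by value within a list; filled points have an adjusted p under 0.05. Called genes lie on both sides of 0 in each list except the list of other complex and lipoate genes, which has 1 fall, Slc19a2.

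Of 12 genes for factors known to act on the kinase genes, 4 rose and 1 fell. Called were 41.7%, beside 10.2% of all genes and 17.5% of those at or above the median level. The median difference was 0.11. This list too was chosen with earlier results of these data known, and no set test was run. Ppard, which encodes PPARδ, a relative of PPARα that also activates Pdk4, fell from 7.49 ± 0.33 to 6.02 ± 0.16, a difference of -1.47 ± 0.13 (adjusted p 4.28e-06, limma). Foxo3, the gene of a forkhead factor that insulin restrains, rose by 0.48 (SE 0.085; adjusted p 0.00209, limma), and Ppargc1b, a coactivator gene, by 0.39 (SE 0.096; adjusted p 0.0166, limma). Hif1a, the hypoxia factor gene linked to Pdk1, rose by 0.34 (SE 0.091; adjusted p 0.0273, limma), and Cebpb, a bZIP factor gene, by 0.37 (SE 0.099; adjusted p 0.0285, limma). Hnf4a, the partner receptor Rxra and the glucocorticoid receptor gene Nr3c1 had differences of 0.12 ± 0.071, 0.049 ± 0.064 and 0.063 ± 0.067 without a call. The call of Hif1a ended without WT 2, WT 5, Ppara KO 1, Ppara KO 3 or Ppara KO 6, at 0.29 to 0.33 (adjusted p 0.0515 to 0.0633, limma). That of Cebpb ended without WT 2, WT 5, WT 6, Ppara KO 2, Ppara KO 4 or Ppara KO 5, at 0.31 to 0.36 (adjusted p 0.0506 to 0.0626, limma). Without WT 1, 3 and 5, Foxo3, Hif1a and Cebpb were not called (adjusted p 0.0575, 0.166 and 0.132, limma).

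The labelled tissue was borne out by its markers: the mean log2 level of 9 hepatocyte markers was 11.4 to 11.5 in WT, against 11.3 to 11.5 in Ppara KO, with 0 of 9 called (the median size of their differences was 0.031). Markers of muscle, in which Pdk4 is abundant, averaged 3.78 to 4.07 in WT, against 3.91 to 4.24 in Ppara KO, with 0 of 8 called. Ppara KO 1, the animal high in Pdk4, had the highest muscle mean of all animals, 4.24, with Ppara KO 3 next at 4.18. The muscle means lay near the array medians of 4.13 to 4.17, and Pdk4 in Ppara KO 3 was 6.98. Ppara KO 1 also had the lowest hepatocyte mean, 11.31. Any part of these cells in its Pdk4 value was not tested. Endothelial and stellate cell markers had 0 of 6 called each. Of 7 macrophage markers 1 rose, Cd5l, of 4 cholangiocyte markers 2 fell, Krt19 and Sox9, and of 5 lymphocyte markers 1 rose, Cd8a. These are 14.3%, 50% and 20% of short lists, beside 10.2% of all genes and 17.5% of those at or above the median level. The calls of Cd5l, Krt19 and Sox9 ended with 8, 6 and 8 of the 12 animals left out singly (adjusted p up to 0.0776, 0.0697 and 0.0835, limma). Their part in the differences above was not tested.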

How the data were processed

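Liver RNA of 12 mice was read on Affymetrix MoGene 2.0 ST arrays, 1 per animal. The authors deposited log2 values per transcript cluster, made with RMA and Partek, versions not given, per the submitters' processing notes. RMA brings arrays to a common distribution, so a shift of most genes would not show, and it compresses differences of dim genes. The arrays had medians of 4.13 to 4.17; their number limits the precision (median SE of a difference 0.093).

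The table held 41345 clusters, of which 23521 had 1 gene symbol, 1814 several and 16010 none in the platform annotation. The brightest cluster stood for a gene, which left 22180 genes. They were fitted with limma 3.58.1 in R 4.3.3 (lmFit, eBayes, 1 mean per genotype, 2-sided), checked on simulated data. All 10 genes matched RefSeq (GRCm38.p6) by Entrez identifier. The genes, lists and motifs were chosen with earlier results of these data known. All 10 genes were named; of each pathway list, called genes (the 5 with the smallest adjusted p where more were called) and up to 3 bright uncalled ones. The PPARα target and clock lists serve as checks and are given by counts. Alternatives covered the variance prior, array weights, scaling, dim genes, cluster choice, thresholds, the animal number as a block, and animals left out.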

Additional observations from a re-analysis of the deposited data

Results flagged for a closer look

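A single animal stood apart from the other 5 of its genotype, by the gap to its nearest neighbour over the whole range (Dixon's 95% critical value), in 8 of 120 groups tested; chance flags about 1 in 20 groups. Of the 10 genes this applied to Pdk4 alone, where Ppara KO 1 was at 8.61 and the others at 6.27 to 7.11.

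In other Ppara KO animals, Agxt was low at 8.80 in Ppara KO 2, Cry1, a clock repressor gene, was high at 6.84 in Ppara KO 2, Ppard was low at 5.71 in Ppara KO 5 and Foxo3 was high at 7.09 in Ppara KO 6. Npas2, a clock activator gene, was high at 7.95 in WT 6 and at 4.63 in Ppara KO 5, and Dbp was high at 7.09 in WT 2.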

How the results depend on the processing

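The call of Pdhb held in each of 21 alternative fits, and that of Pdp2 in 20 of 21. The set of 10 genes had 1 call, in place of 2, without WT 1, 3 and 5 and at an adjusted p under 0.01, and 0 with treat, the limma test against a 1.2-fold change. All genes had 1008 calls without WT 1, 3 and 5, which leaves 3 WT animals, 1070 at an adjusted p under 0.01 and 329 with treat, beside 2268. With single animals left out the set of 10 had 2 to 3 calls, and all genes 1817 to 2130. The sign turned in 3 genes that were never called: Ppara ran from -0.022 to 0.072, Pdha1 from -0.070 to 0.0052 and Cry1 from -0.22 to 0.0034 with single animals left out, and the cause was not tested. Over all genes, same-numbered animals showed no sign of pairing (correlation -0.047 to 0.043, with 1 of 6 closest to its own number). Pairing that touches only some genes was not tested. With the replicate block 1672 genes were called, and 2 of the 10, and Slc19a2, Dhtkd1, Bckdhb, Ppm1k, Idh2, Krt19 and Sox9 were not (adjusted p 0.0550 to 0.0828, limma).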

Other observations

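Other genes varied between animals much as Pdk4 did. After the mean of each genotype was subtracted, the 5 genes with the highest Pearson correlation with Pdk4 over the 12 arrays, out of 10586 at or above the median level that are not predicted genes (Gm or Rik symbols), were Erich5 (r = 0.88), Dennd3 (r = 0.87), Zfp41 (r = 0.87), Sp3 (r = 0.87) and Rilp (r = 0.86), with Spearman's rho of 0.74 to 0.85. These are the highest of many and the arrays share Ppara KO 1, the animal farthest from its group, so they are a description. Ppara KO 1 was the highest Ppara KO animal in all 5, for instance at 5.24 in Erich5, where the other 5 ran from 4.71 to 4.95. None of the 5 was called between the genotypes: their differences ran from -0.21 for Zfp41 to -0.0016 for Sp3 (adjusted p 0.0783 to 0.994, limma). Among the other 9 genes of the set the correlation with Pdk4 was highest for Pdp1, at 0.68, and Mpc1, at 0.52, and lowest for Pdha1, at -0.015.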
